A study of Mus musculus with 10 samples.

Results

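The Pparg locus was defined as the peaks of the ATAC-seq count table that overlap the Pparg gene (ENSMUSG00000000440.12, chr6:115360951-115490399, plus strand, GRCm38) or the 10 kb on either side of it, and 7 of the 97385 peaks of the table met this rule. They are called P1 to P7 here, in their order along the chromosome. All 7 passed the filter on low counts, which left 97109 peaks of the table for testing.

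The libraries came from regulatory T cells (Tregs) sorted as CD4+Foxp3-YFP+TCRb+ cells from the spleen or lung of 10-day-old mice. Every mouse carried a Cre recombinase with a YFP reporter expressed from Foxp3, the gene that marks Tregs. In Foxp3CrePik3c3fl/fl mice, Cre deletes Pik3c3, which encodes the lipid kinase Vps34, in cells that express Foxp3. These mice gave 4 spleen and 2 lung libraries, called Vps34-deficient. Control mice were Foxp3CrePik3c3+/+ or Foxp3CrePik3c3+/fl, which the labels do not tell apart, and gave 2 spleen and 2 lung libraries. The study's text counts the samples of each group as mice, although its spleen numbers are the reverse of the labels, and it does not say whether spleen and lung libraries came from the same mice. ATAC-seq uses the Tn5 transposase to cut accessible DNA, and accessibility is given as CPM, the count in a peak per 1000000 counts of the same library over all peaks.

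PPARγ, the product of Pparg, is a nuclear receptor that binds fatty acids and their derivatives and pairs with a retinoid X receptor (RXR) on DNA. It is the master regulator of fat cell formation, and in Tregs it is known for its role in the population that resides in visceral fat and in precursors of tissue Tregs. The gene has several promoters, and the transcript from an internal promoter is typical of adipocytes.

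Of the 7 peaks, 2 lay at the 5′ end of the gene and 5 lay further inside it. P1 (chr6:115360753-115361336, 584 bp) covered the first start of the GENCODE models, that of transcript Pparg-202, and most of its untranslated first exon. P2 (chr6:115361751-115362009, 259 bp) had its centre 0.93 kb downstream of that start, in an intron of the GENCODE models and an exon of a RefSeq model. P3 (chr6:115382529-115382728, 200 bp) lay in an intron, 971 bp before the start of Pparg-207. P4 (chr6:115432448-115432916, 469 bp) lay in an intron 71.73 kb downstream of the first start. P5 (chr6:115440368-115441097, 730 bp) was intronic too, and its edge lay 393 bp from the start of Pparg-205. P6 (chr6:115480079-115480986, 908 bp) and P7 (chr6:115481815-115482333, 519 bp) lay side by side in an intron near the 3′ end of the gene, with centres 119.58 and 121.12 kb from the first start. The start of Pparg-201, the internal promoter typical of adipocytes, had no peak, and the nearest was P4 at 10382 bp.

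The sequences below are the 126 bases of P1 upstream of the first RefSeq exon, the whole of P3, and the 300 bases at the centre of P4 to P7, read from the GRCm38 reference genome on the plus strand. They are shown because P3 to P7 held the larger part of the difference between genotypes, with P1 as the promoter to set them against. Capitals mark matches on either strand to the motifs searched, which are given after the sequences, by their letters or, for NF-kB, by name alone.
P1 chr6:115360753-115360878: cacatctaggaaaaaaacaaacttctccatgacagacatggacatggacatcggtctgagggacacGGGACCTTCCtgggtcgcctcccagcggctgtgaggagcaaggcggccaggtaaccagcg
P3 chr6:115382529-115382728: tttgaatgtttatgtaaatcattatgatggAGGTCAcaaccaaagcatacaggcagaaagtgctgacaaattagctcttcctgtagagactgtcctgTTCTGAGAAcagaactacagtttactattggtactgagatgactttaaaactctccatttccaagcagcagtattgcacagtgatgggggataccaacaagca
P4 chr6:115432533-115432832: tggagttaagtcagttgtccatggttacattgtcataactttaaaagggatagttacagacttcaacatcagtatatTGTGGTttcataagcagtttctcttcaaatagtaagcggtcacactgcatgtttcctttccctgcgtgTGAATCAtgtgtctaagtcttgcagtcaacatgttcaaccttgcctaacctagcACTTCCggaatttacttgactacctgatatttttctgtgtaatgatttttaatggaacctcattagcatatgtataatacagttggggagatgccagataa
P5 chr6:115440583-115440882: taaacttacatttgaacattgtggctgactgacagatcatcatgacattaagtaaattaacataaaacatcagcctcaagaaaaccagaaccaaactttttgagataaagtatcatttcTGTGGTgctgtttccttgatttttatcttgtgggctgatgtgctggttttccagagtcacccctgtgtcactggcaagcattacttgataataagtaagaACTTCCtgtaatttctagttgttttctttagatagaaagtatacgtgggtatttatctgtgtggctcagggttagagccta
P6 chr6:115480383-115480682: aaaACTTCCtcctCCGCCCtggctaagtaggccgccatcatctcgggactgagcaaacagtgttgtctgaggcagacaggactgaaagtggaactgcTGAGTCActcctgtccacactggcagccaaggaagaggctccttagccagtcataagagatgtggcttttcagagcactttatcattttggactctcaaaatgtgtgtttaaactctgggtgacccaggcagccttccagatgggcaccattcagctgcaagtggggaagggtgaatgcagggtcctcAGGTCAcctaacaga
P7 chr6:115481925-115482224: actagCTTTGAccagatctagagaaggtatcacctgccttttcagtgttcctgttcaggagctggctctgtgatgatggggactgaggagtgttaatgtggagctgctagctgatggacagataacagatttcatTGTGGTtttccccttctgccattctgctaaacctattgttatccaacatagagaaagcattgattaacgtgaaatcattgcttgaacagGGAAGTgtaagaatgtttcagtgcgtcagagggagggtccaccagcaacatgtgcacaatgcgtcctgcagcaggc
Among the 300-base windows at the centre of the 7 peaks, the letters TGANTCA, bound by AP-1 factors, were present in P4 and P6, and they were present in 13.0% of the windows of all peaks. TGTGGT, the core of Runx sites, was present in P4, P5 and P7 and in 26.5% of all windows. GGAAGT, an ETS sequence, was present in P4, P5, P6 and P7 and in 26.9% of all windows. P3 was the member with TTCNNNGAA, read by STAT factors, which 9.30% of all windows held. AGGTCA, the element of which nuclear receptor sites are built, was present in P1, P3 and P6 and in 16.8% of all windows. The PPARγ:RXR site is made of 2 such elements in direct repeat with 1 base between them, searched here with each element as AGGNCA, and no member held it, against 0.411% of all windows. CTTTGA, a TCF sequence, was present in the windows of P3 and P7, where the one of P3 lies outside the peak, and in 21.6% of all windows. GGGCGG, the box of KLF and SP factors, was present in P1 and P6 and in 18.3% of all windows. GATAAG, bound by GATA factors, had no match in the 7 windows, against 9.38% of all windows. The same held for TGACGTCA, the CRE, with 0.846% of all windows, for the NF-kB motif with 8.57% and for the IRF motif (GAAA, 2 bases of any kind, GAAA) with 5.73%. Over whole peaks, P5 also held the AP-1 letters and AGGTCA, P6 the GATA letters, and P4, P5 and P6 CTTTGA, which P3 then lacked. P1 also held the NF-kB motif, which is the match in capitals above. These matches are descriptions of the sequence, and the factors bound were not measured.

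The first comparison asked how accessibility at Pparg differed between Vps34-deficient and control Tregs in each tissue. All 7 peaks were lower without Vps34 in both tissues, with every Vps34-deficient library below every control library of the same tissue at each peak. The same held for 11.1% of all tested peaks in spleen and 22.0% in lung. In spleen the fold between genotypes was smallest at P2, P6 and P1 (1.72, 1.79 and 1.86) and largest at P4, where controls were 10.1-fold higher. In lung P1 and P2 had the smallest folds, 1.75 each, and P3 had no count in either Vps34-deficient library. Differences of this form can come from fewer cells with the region open or from less opening per cell, which cannot be told apart in bulk libraries.

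At the promoter peak P1, spleen control values were 7.66 and 7.16 CPM, set against 4.59, 4.28, 3.52 and 3.59 CPM in spleen without Vps34. Lung control values were 8.51 and 10.3 CPM, set against 4.87 and 6.14 CPM. The groups did not overlap in either tissue. The log2 fold change of Vps34-deficient over control was -0.89 (SE 0.212) in spleen (edgeR quasi-likelihood test, p adjusted by Benjamini-Hochberg over all tested peaks, 0.03). In lung it was -0.81 (SE 0.258) with an adjusted p of 0.0685 by the same test, so the lung difference did not pass the threshold of 0.05. With a term for the replicate number, the spleen value was -0.73 and did not pass (adjusted p = 0.289, edgeR). The spleen call was lost without spleen control replicate 1 (adjusted p = 0.264), without spleen control replicate 2 (0.135) or without Vps34-deficient replicate 4 (0.0852), all by edgeR.

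P2, just inside the gene, was a weak peak (percentile 21.3 of all peaks by mean count). Both spleen controls read 1.52 CPM here, and the spleen libraries without Vps34 read 1.25, 0.612, 0.812 and 0.861 CPM. The lung controls read 1.91 and 2.82 CPM, against 1.30 and 1.48 CPM without Vps34. The groups did not overlap, with a log2 fold change of -0.78 (SE 0.428) in spleen and -0.81 (SE 0.505) in lung, and neither passed the edgeR test (adjusted p = 0.429 and 0.381).

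P3, the weakest of the 7 (percentile 1.30 by mean count), collected 32 and 10 counts from spleen controls but 4, 0, 6 and 1 from spleen without Vps34. From lung controls it collected 12 and 22 counts, and from lung without Vps34 it collected 0 in both libraries. As normalised values these were 1.43 and 0.689 CPM against 0.278, 0, 0.271 and 0.0718 CPM in spleen, and 1.28 and 1.55 CPM against 0 in lung. With 0 replaced by a floor of 3 counts per library, the lung controls were at least 5.04-fold higher. P3 passed the low-count filter only through control libraries, the group where it is high, so its test is no independent support for a decrease. The lung difference passed the edgeR test (adjusted p = 0.0101), and the spleen difference, a log2 fold change of -2.67 (SE 0.730), did not (adjusted p = 0.0665). The lung call was lost without lung control replicate 2 (adjusted p = 0.0599) or without either Vps34-deficient lung library (0.103 without replicate 1 and 0.0708 without replicate 2), and the spleen difference passed without either lung control library (0.0425 without replicate 1 and 0.0475 without replicate 2). It also passed with the spleen libraries fitted alone (0.03), with halved counts (0.0386) and with GC offsets (0.0457).

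P4, in the middle of the gene, stood at 5.88 and 5.23 CPM in spleen controls, while spleen without Vps34 gave 0.695, 0.612, 0.451 and 0.431 CPM. Lung controls gave 5.10 and 6.49 CPM, while lung without Vps34 gave 1.30 and 0.847 CPM. The lowest control library was thus far above the highest Vps34-deficient library in both tissues. Its log2 fold change in spleen was -3.34 (SE 0.321), 10.1-fold higher in controls, and in lung -2.43 (SE 0.397), 5.39-fold higher in controls. Both passed the edgeR test (adjusted p = 2.23e-06 and 0.000553), and leaving out any 1 library kept both calls.

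P5 had 2.50 and 4.96 CPM in spleen controls, as compared with 0.974, 0.612, 0.993 and 1.29 CPM in spleen without Vps34. Its lung control values, 11.1 and 16.9 CPM, were the highest of any member in any library, as compared with 2.44 and 3.18 CPM in lung without Vps34. The spleen controls differed more from each other here than at P1, P4 or P7. Its spleen log2 fold change was -1.92 (SE 0.331, adjusted p = 0.00223, edgeR), and its lung value was -2.36 (SE 0.356, adjusted p = 0.000254). Without spleen control replicate 2 the spleen value was -1.40 and no longer passed (adjusted p = 0.127).

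P6, the widest member, was seen at 3.92 and 3.31 CPM in spleen controls but 2.64, 2.32, 1.35 and 1.87 CPM in spleen without Vps34. Its lung control values of 8.72 and 10.4 CPM compare with 2.11 and 3.18 CPM without Vps34. The gap between genotypes was narrow in spleen and wide in lung. In spleen it had a log2 fold change of -0.84 (SE 0.288), which did not pass the edgeR test (adjusted p = 0.15), and in lung one of -1.90 (SE 0.341), which did (0.00137). The lung call was lost without Vps34-deficient lung replicate 1 (adjusted p = 0.0547).

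P7, the neighbour of P6, was seen at 2.32 and 2.34 CPM in spleen controls but at 0.556, 1.47, 0.542 and 1.005 CPM in spleen without Vps34. Its lung control values of 5.10 and 9.17 CPM compare with 0.487 and 1.27 CPM without Vps34. The lung controls were far apart, yet both were above all other libraries. In lung it had a log2 fold change of -3.11 (SE 0.515, adjusted p = 0.000635, edgeR) and in spleen one of -1.39 (SE 0.411), which did not pass (0.0908). It passed in spleen without lung control replicate 1 (0.0448) or without Vps34-deficient spleen replicate 2 (0.0454), and with the spleen libraries fitted alone (0.0496).

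**Figure D1:**
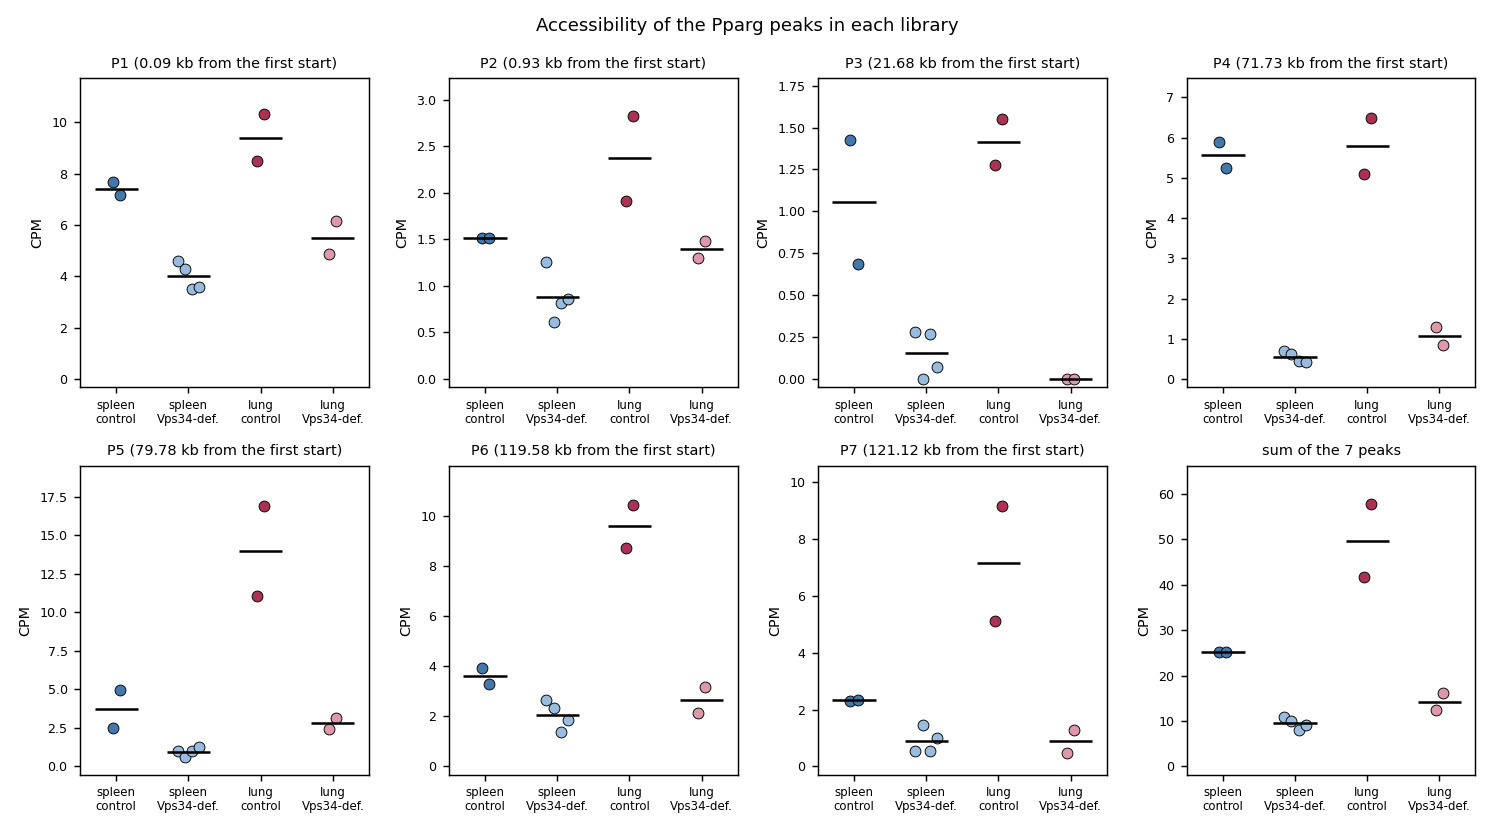
Accessibility in CPM at each Pparg peak and summed over the 7 peaks. Points are libraries (4 for Vps34-deficient spleen, 2 for each other group) and lines are group means. In every panel the Vps34-deficient libraries sit below the controls of the same tissue, and the sum falls from 25.2 to 9.49 CPM in spleen and from 49.7 to 14.3 CPM in lung.

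In spleen, 3 of the 7 peaks (P1, P4 and P5) were called lower, and 0 were called higher. A call needs an adjusted p under 0.05 together with a log2 fold change beyond 0.5 in either direction. Over all tested peaks, 1.02% were called lower in spleen. In lung, 5 of 7 (P3 to P7) were called lower, against 3.74% of all tested peaks. P3 is counted here although it passed the low-count filter only through control libraries. Every Vps34-deficient library lay below every control at 7 of 7 members in both tissues, which held for 11.1% of all tested peaks in spleen and 22.0% in lung. The median log2 fold change over the members was -1.39 in spleen and -2.36 in lung, or -2.33 in lung with P3 at its bound, while the medians over all tested peaks were 0.05 and 0.02. With the tissues averaged in a model of tissue and genotype, 6 of 7 were called lower, all but P2, against 4.06% of all tested peaks. The number called in spleen ranged from 1 to 5 as single libraries were left out, and was 1 without spleen control replicate 2 and 5 without lung control replicate 1. In lung it was 3 without Vps34-deficient replicate 1.

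**Figure D2:**
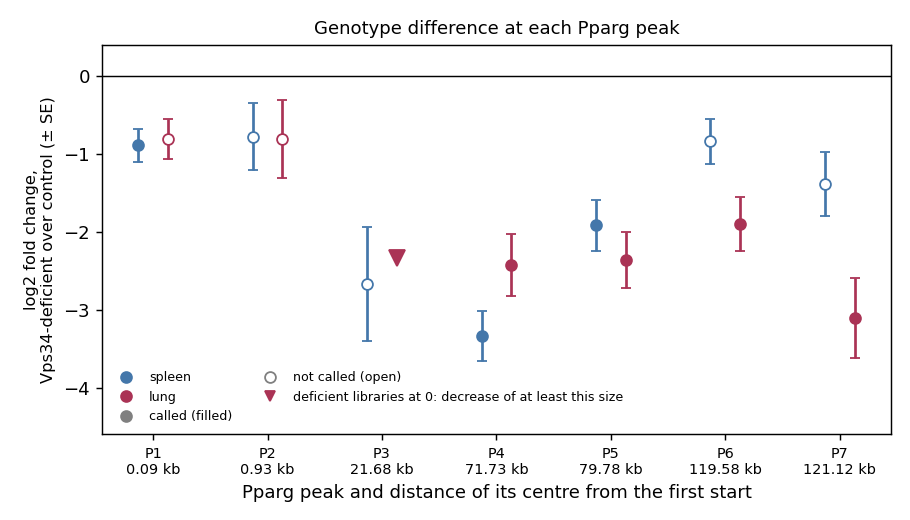
Log2 fold change of Vps34-deficient over control (± SE from the edgeR fit) at the 7 Pparg peaks in spleen and lung, by peak and the distance of its centre from the first start in kb. Filled symbols passed the test, and the triangle marks P3 in lung, where both Vps34-deficient libraries had 0 counts and the decrease is at least as large as drawn. All values are below 0, from -0.78 at P2 to -3.34 at P4 in spleen.

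Summed over the locus, the spleen controls had 25.2 and 25.2 CPM (25.2 ± 0.0105, SD, n = 2) while spleen without Vps34 had 10.99, 9.91, 7.94 and 9.12 CPM (9.49 ± 1.29, SD, n = 4). The lung controls had 41.7 and 57.7 CPM (49.7 ± 11.3, SD, n = 2) while lung without Vps34 had 12.5 and 16.1 CPM (14.3 ± 2.53, SD, n = 2). The order was lung control, spleen control, lung Vps34-deficient and spleen Vps34-deficient, and no neighbouring groups in this order overlapped. Controls were 2.66-fold higher than Vps34-deficient libraries in spleen and 3.48-fold higher in lung. No test was run on the sum.

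The 2 peaks within 1 kb of the first start, P1 and P2, summed to 8.93 ± 0.355 CPM in spleen controls and 4.88 ± 0.686 CPM in Vps34-deficient spleen libraries (SD, n = 2 and 4), a ratio of 1.83. The 5 peaks beyond it, P3 to P7, summed to 16.3 ± 0.344 and 4.61 ± 0.696 CPM, a ratio of 3.53. In lung the ratio was 1.71 at the 5′ end, from 11.8 ± 1.91 to 6.90 ± 1.02 CPM, and 5.12 over P3 to P7, from 37.9 ± 9.43 to 7.40 ± 1.51 CPM (SD, n = 2 each). The promoter peak accordingly made up a larger share of the locus without Vps34. P1 held 28.4% and 30.4% of the sum in the spleen controls and 39.4% to 44.3% in the Vps34-deficient spleen libraries, and 17.8% and 20.4% against 38.2% and 38.96% in lung. P4 moved the other way in spleen, from 20.8% and 23.3% in controls to between 4.72% and 6.33%. P5 held the largest share in the lung controls, 26.5% and 29.3%, and stood at 19.5% and 19.7% in lung without Vps34. The split by distance was made after the values were known and was not tested.

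**Figure D3:**
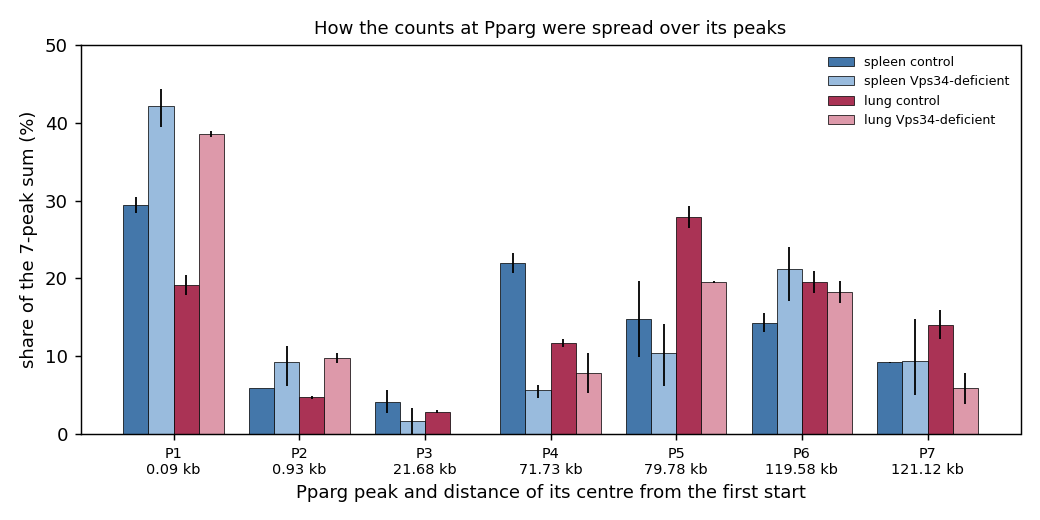
Share of the counts at Pparg that fell in each of its 7 peaks, in percent of the 7-peak sum, by group. Bars are group means and vertical lines run from the lowest to the highest library. The mean share of P1 is 29.4% in spleen controls and 42.2% without Vps34, and in lung it is 19.1% and 38.6%, and P4 falls from 22.0% to 5.73% in spleen.

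The next comparison set lung against spleen within each genotype. It shares its libraries with the genotype comparisons, so the values are given side by side. In controls, the peaks near the 3′ end of the gene and P5 were higher in lung. P5 was 4.06-fold higher in lung (log2 fold change 2.02, SE 0.332), P6 2.79-fold (1.48, SE 0.315) and P7 3.26-fold (1.71, SE 0.432), and the adjusted p were 0.000247, 0.0023 and 0.00855 (edgeR). These 3 of 7 compare with 11.8% of all tested peaks called higher in lung controls. P4 differed by 0.14 on the log2 scale (SE 0.326, adjusted p = 0.824, edgeR), and P1 (0.43, SE 0.243), P2 (0.74, SE 0.480) and P3 (0.48, SE 0.738) did not pass the test either (adjusted p = 0.257, 0.333 and 0.730). The P7 call was lost without lung control replicate 2 (1.11, adjusted p = 0.184), without spleen control replicate 1 (1.59, 0.110) or without spleen control replicate 2 (1.66, 0.0686), and P4 turned to -0.14 without lung control replicate 2.

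Without Vps34, P5 was the member called higher in lung than in spleen, 2.99-fold (log2 fold change 1.58, SE 0.367, adjusted p = 0.00396, edgeR), which is 1 of 7 against 12.5% of all tested peaks. That call was lost without Vps34-deficient lung replicate 2 (1.45, adjusted p = 0.0503). P6 had a log2 fold change of 0.42 (SE 0.323) and P7 of -0.01 (SE 0.524), and neither passed (adjusted p = 0.415 and 0.992). P4 (1.05, SE 0.424), P1 (0.51, SE 0.231) and P2 (0.71, SE 0.461) did not pass either (adjusted p = 0.0873, 0.133 and 0.320, edgeR). P3, with no count in the Vps34-deficient lung libraries, did not pass (adjusted p = 0.183). The sum over the locus was 1.97-fold higher in lung than in spleen in controls and 1.51-fold higher without Vps34.

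The interaction term asked whether losing Vps34 changed Pparg differently in lung and in spleen. No member was called, in the edgeR fit or by the DESeq2 Wald test, and 0.0% of all tested peaks were called by edgeR. Without adjustment, 3 of the 7 members had p below 0.05 in edgeR, as had 7060 of all 97109 tested peaks. P7 had the smallest p, with a decrease in lung larger by 1.72 on the log2 scale (interaction -1.72, SE 0.677, adjusted p = 0.582, edgeR). P6 had an interaction of -1.06 (SE 0.451, adjusted p = 0.622, edgeR), and at P4 the sign was the opposite (0.91, SE 0.530, adjusted p = 0.76). The larger decrease in lung at P6 and P7 is therefore not shown to differ from that in spleen by this test.

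Peaks around the gene were read from the same fits. Within 300 kb of Pparg and outside its 10 kb flanks lay 54 tested peaks. Of these, 2 were called lower and 1 higher in spleen, and 7 lower and 1 higher in lung, with median log2 fold changes of 0.07 and -0.04. The share of all tested peaks called lower was 1.02% in spleen and 3.74% in lung. Of the 13 upstream peaks, 0 were called lower and 1 higher in spleen, and 1 was called lower in lung, with medians of 0.15 and 0.30.

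The called peak with the smallest p-value among these 54 lay 154.97 kb from the first start (chr6:115515669-115516176), beyond the 3′ end of Pparg. Spleen controls had 5.26 and 5.51 CPM there, against 1.67, 1.47, 0.903 and 1.29 CPM without Vps34, and lung controls had 9.36 and 12.1 CPM, against 0.650 and 2.33 CPM. By edgeR it differed by -2.03 in spleen on the log2 scale (SE 0.316, adjusted p = 0.00073) and by -2.94 in lung (SE 0.406, adjusted p = 9.83e-05).

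**Figure D4:**
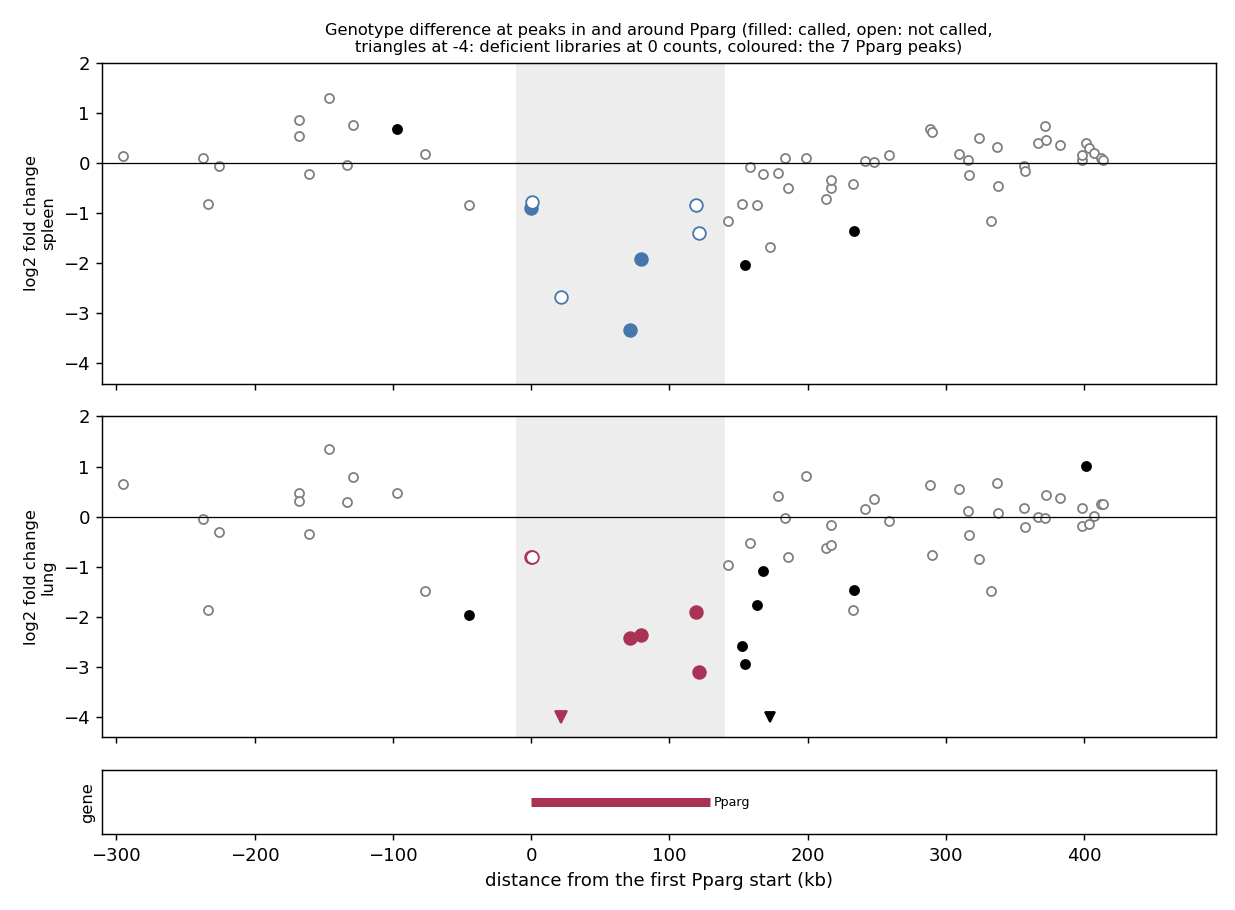
Log2 fold change of Vps34-deficient over control at the 7 Pparg peaks (coloured) and the 54 other peaks within 300 kb (grey or black), against the distance from the first Pparg start in kb, for spleen and lung, with the Pparg gene body below and the Pparg window shaded. Filled symbols were called, and triangles mark peaks with 0 counts in both Vps34-deficient lung libraries, drawn near the lower edge and not at a fitted value. Outside the window, 2 peaks in spleen and 7 in lung are called lower, of which 0 and 1 lie upstream of the gene.

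The other genes of the PPAR pathway were read from gene lists, by the tested peaks that overlap a gene or its 10 kb flanks, and the share called lower in each list stands against the 1.02% of all tested peaks in spleen and the 3.74% in lung. Of the 34 peaks of Ppara and Ppard, its paralogs, and of the RXR genes Rxra, Rxrb and Rxrg, 0 were called lower in either tissue. The 1 call was a Ppard peak that was higher without Vps34 in spleen (6.60 ± 1.77 CPM in controls, n = 2, and 12.3 ± 1.67 CPM in Vps34-deficient libraries, n = 4, SD, log2 fold change 0.91, SE 0.222, adjusted p = 0.0364, edgeR). In lung the same peak had a log2 fold change of 0.70 (SE 0.234) and did not pass (adjusted p = 0.0823). The medians over the 34 peaks were 0.06 in spleen and -0.10 in lung.

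Among the coactivators and corepressors of nuclear receptors, 1 of 126 peaks was called lower in spleen (0.794%, against 1.02% of all tested peaks) and 8 in lung (6.35%, against 3.74%), with 0 called higher and medians of 0.03 and 0.01. The leading gene was Ncor1, a corepressor, with 1 of 7 peaks lower in spleen and 2 in lung. Its strongest peak fell by 2.00 on the log2 scale in lung (SE 0.189, adjusted p = 2.06e-06, edgeR), from 39.7 ± 8.62 to 10.2 ± 0.593 CPM (SD, n = 2 each), and in spleen it fell by 1.05 (SE 0.152, adjusted p = 0.000294). Ncoa2, a coactivator, had 4 of 38 peaks lower in lung, and Ncoa1 had 1 of 11.

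Among 20 lipid genes known as PPAR targets, 1 of 97 peaks was called lower in spleen (1.03%, a share like the 1.02% of all tested peaks) and 7 in lung (7.22%, against 3.74%), with 1 higher in lung, at Abcg1, and medians of -0.01 and 0.00. The named genes were Ucp2, a mitochondrial carrier with 1 of 7 peaks lower in both tissues, Dgat1, an enzyme of triglyceride synthesis with 4 of 5 peaks lower in lung, Slc27a2, a fatty acid transporter with 1 of 3, and Cpt1a, the carnitine transferase of fatty acid oxidation, with 1 of 6. The strongest Dgat1 peak had a log2 fold change of -1.74 in lung (SE 0.358, adjusted p = 0.00444, edgeR), from 8.27 ± 0.327 to 2.51 ± 0.338 CPM (SD, n = 2 each). Fat cell targets such as Fabp4 and Adipoq had 0 of 5 and 0 of 7 peaks called in either tissue. Of the C/EBP factors, which act with PPARγ in fat cells, Cebpa had 2 of 3 peaks lower in lung and 0 in spleen, and Cebpb and Cebpd had 0 of 5 and 0 of 2 in either tissue, so that the list had 0 of 10 in spleen and 2 of 10 in lung (20%, against 3.74%), with medians of -0.18 and -0.48.

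The list of transcription factors and receptors of tissue Tregs had 6 of 135 peaks called in spleen (4.44%, against 1.02% of all tested peaks) and 21 in lung (15.6%, against 3.74%), all lower, with medians of -0.00 and -0.29. Klrg1, a receptor of terminally differentiated Tregs, had 5 of 8 peaks lower in spleen and 6 in lung, and its strongest peak had log2 fold changes of -1.84 (SE 0.203, adjusted p = 1.14e-05, edgeR) and -3.39 (SE 0.281, adjusted p = 1.17e-06). Il1rl1, the gene of the IL-33 receptor, had 0 of 9 in spleen and 3 in lung. Rora, a nuclear receptor, had 6 of 53 lower in lung and 0 in spleen, and Cxcr6, a chemokine receptor, had 1 of 4 in each tissue. In lung, Prdm1 and Ccr2 had 2 peaks lower each and Nfil3 had 1. For the other genes of the list, Gata3, Batf, Irf4, Maf, Id2 and Areg, 0 peaks were called in either tissue. The lists were chosen with results of these data known, and their counts are no independent evidence.

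The genes whose accessibility followed that of Pparg most closely were found by the Pearson correlation of log2(summed CPM + 1) over the 10 libraries among 12225 protein-coding genes with at least 3 peaks. They were Rassf6 (r = 0.990), Ctsh, which encodes the lysosomal protease cathepsin H (0.984), Cpped1 (0.975), Smco4 (0.974), Slc22a15 (0.974) and Cd200r4 (0.973), where 95% of genes had an r below 0.726. The 10 libraries fall into 4 groups and share their depth with every gene, and r is given as a description over these 10 libraries. Rassf6, for example, summed to 40.2 ± 1.58 CPM in spleen controls (n = 2), 16.7 ± 1.20 in Vps34-deficient spleen (n = 4), 66.9 ± 5.16 in lung controls (n = 2) and 21.2 ± 4.20 in Vps34-deficient lung libraries (n = 2, SD). By Spearman's rho, 1 of the 6 stayed among the 6 most alike.

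The 10 libraries held between 9405823 and 22439699 counts. The coefficient of variation between replicates that edgeR estimated over all tested peaks was 17.8%. Between 91.5% and 96.5% of the peaks of a library had an even count, as they are where both mates of a fragment are counted. The chromosome Y signal was high in 5 libraries (56.9 to 67.6 CPM) and low in 5 (7.03 to 21.4 CPM), split evenly within each group. The deletion of Pik3c3 itself was not checked here. Within the high libraries the locus sum was 25.2 CPM in the spleen control against 9.91 and 9.12 CPM without Vps34, and 41.7 against 16.1 CPM in lung. Within the low libraries it was 25.2 against 10.99 and 7.94 CPM, and 57.7 against 12.5 CPM. Peaks within 1 kb of a start of 6 Treg markers summed to 219.5 to 290.3 CPM over all libraries, with Foxp3, the defining gene of the lineage, between 64.2 and 89.1 CPM.

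Macrophages, adipocytes and type 2 lymphocytes also use Pparg, and their markers were read in the same way. Of 12 macrophage and myeloid markers, 10 had no promoter peak, among them Lyz2, Csf1r, Adgre1, Marco, Siglecf and Chil3. The list summed to 14.7 to 18.3 CPM in spleen controls and 11.8 to 15.2 CPM without Vps34, and to 17.2 to 18.1 and 10.9 to 12.7 CPM in lung, nearly all of it at Spi1. Spi1 itself did not overlap between genotypes in either tissue, with 13.8 to 17.2 CPM in spleen controls and 10.8 to 13.4 CPM without Vps34, and with 15.5 to 16.7 and 9.58 to 12.1 CPM in lung. The adipocyte list, with no promoter peak at Adipoq or Cidec, summed to 38.7 to 39.4 CPM in spleen controls and 34.8 to 39.1 CPM without Vps34, and to 35.7 to 39.1 and 35.6 to 47.1 CPM in lung. The list of ILC2 and Th2 markers, with no promoter peak at Il13 or Ptgdr2, summed to 20.2 to 24.0 and 17.9 to 19.8 CPM in spleen and to 18.7 to 25.5 and 14.3 to 18.4 CPM in lung. Of its members Il5 measured 4.04 to 6.07 CPM in lung controls and 0.635 to 1.62 CPM in Vps34-deficient lung libraries. In spleen Il5 overlapped between genotypes, with 0.827 to 1.60 CPM in controls and 0.722 to 1.58 CPM without Vps34. The macrophage list in lung, Spi1 in both tissues and the ILC2 and Th2 list in both tissues thus did not overlap between genotypes. For the ILC2 and Th2 list the margin was narrow in both tissues. Of all tested single peaks, 11.1% in spleen and 22.0% in lung had every Vps34-deficient library below every control. The part of these markers in the difference at Pparg was not tested. Of the markers of B cells, CD8 and NK cells, lung epithelium and endothelium, 3 in each list had a promoter peak, and Ncr1, Sftpc and Cldn5 had none. B cell markers summed to 31.1 to 42.4 CPM and endothelial markers to 28.8 to 37.3 CPM, with the genotypes overlapping in both tissues. CD8 and NK cell markers did not overlap in lung, with 23.6 to 27.6 CPM in controls and 33.0 to 39.6 CPM without Vps34. Lung epithelial markers did not overlap in spleen, with 34.1 to 35.5 CPM in controls and 28.3 to 32.4 CPM without Vps34. The part of these lists was not tested either.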

How the data were processed

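ATAC-seq was run on Tregs of 10-day-old mice, in 10 spleen and lung libraries. The authors removed duplicates, shifted read ends for the Tn5 insertion, kept nucleosome-free fragments, called peaks per sample with MACS2 (version 2.1.0.20150603 in the submitters' processing notes), merged reproducible peaks and deposited whole-number counts of reads per peak, not normalised. The methods name mm9 and the processing notes GRCm38. On GRCm38, 51.2% of 21911 gene starts lay in a peak, against 2.78% and 2.94% after shifts of 50 kb, so that build was used (GENCODE M21 models, RefSeq sequence). The methods give 4 control and 2 Vps34-deficient spleen samples, where the labels give the reverse. The labels were followed.

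Counts were filtered with filterByExpr, scaled with TMM factors and fitted with the quasi-likelihood model of edgeR 4.0.16 (R 4.3.3) in 4 groups that share an estimate of the spread. P-values were adjusted by Benjamini-Hochberg over all 97109 tested peaks, and calls took the study's thresholds, 0.05 for the adjusted p and 0.5 for the size of the log2 fold change. Each standard error was the fold change over the root of its F statistic. The model was first tested on simulated data. DESeq2 1.42.0, other scalings, filters and thresholds, halved counts, GC offsets, a chromosome Y term, a replicate block and leaving out each library were alternatives. Chi-square over its degrees of freedom was 2.77 to 5.37 for pairs of replicates. Most counts were even, as where both mates are counted, which by itself raises this value. How far the replicates exceeded sampling noise was therefore not measured.

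All 7 peaks are named, with up to 4 genes per list that have a called peak and the smallest p-values, the 6 genes most like Pparg and the called surrounding peak with the smallest p-value. Some items that this rule names are not reported here. Other named genes, such as Fabp4 and Gata3, were chosen after their values were seen. The members and lists were chosen with earlier results of these data known. The study counts samples as mice, but the labels do not tie a library to a mouse, so libraries were the replicates.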

Additional observations from a re-analysis of the deposited data

How the results depend on the processing

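The alternatives left the direction of the genotype difference unchanged in spleen, in lung and in the average at each of the 7 peaks they tested, where the mean count filter left out P3. The number of peaks called lower in spleen was 3, rose to 5 with the spleen libraries fitted alone and to 4 with GC offsets and with halved counts, fell to 2 with a log2 fold change over 1 required, and ran from 1 to 5 as each library was left out. In lung it was 5, and 3 to 5 with a library left out. The average gave 6 throughout the leave-one-out fits. The count higher in lung than spleen was 3 in controls, with 2 to 3 leaving out a library, and 1 without Vps34, with 0 to 1. The interaction gave 0 in each. The labels do not say whether the replicate numbers pair the libraries. Deviations of same-numbered libraries correlated at -0.116 to 0.0786 over peaks, which with 2 libraries in most groups cannot show or exclude pairing. Same-numbered spleen and lung libraries of a genotype were alike in their high or low chromosome Y signal. With the replicate block, 2 peaks were lower in spleen (P1 was no longer called), 5 in lung and 6 in the average.

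The locus sum of the spleen controls was 25.2 CPM and 24.8 CPM with TMM scaling, and ran from 25.2 to 25.2 CPM with a library left out, against 8.99 to 10.0 CPM in Vps34-deficient spleen, 41.7 to 57.7 CPM in lung controls and 12.5 to 16.1 CPM in Vps34-deficient lung. Of the 6 genes most like Pparg, 1 stayed with Spearman's rho.

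No called value changed sign. Between tissues, P4 in controls turned to -0.10 with GC offsets and ran from -0.14 to 0.22 leaving out a library, and P7 without Vps34 turned to 0.00362 with groups compared alone and to 0.0208 with a mean count filter, and ran from -0.73 to 0.63. For the interaction, P1 turned to -0.0732 with the replicate block. P2 turned to 0.0175 with the chromosome Y term, 0.0203 with DESeq2, 0.0226 with halved counts, 0.0172 with median-of-ratios factors, 0.0503 with GC offsets, 0.0408 with the mean count filter and 0.0024 with no filter, and ran from -0.13 to 0.38 leaving out a library. P5 ran from -0.88 to 0.0875, the last without spleen control replicate 1. The causes were not tested. Depth limits P2 and P3 most, with 10 to 40 and 0 to 32 counts in a library.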
